A study of Mus musculus with 6 samples.

Results

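The genes of the cytosolic ribosomal proteins were compared between mouse oocytes that had grown in cultured follicles and oocytes that had grown in the ovary. A gene was a member when its symbol in the deposited table began with Rpl or Rps and a digit, or was Rplp0, Rplp1, Rplp2 or Rpsa, and symbols beginning with Rps6k, which name kinases, were left out. This gave 79 of the 10896 genes in the table. Of these, 72 encode core proteins of the ribosome, 45 in the large and 27 in the small subunit. A further 6 are paralogs of core genes, namely Rpl7l1, Rpl22l1, Rpl36al, Rpl39l, Rps27l and Rps4l. The last, Rps19bp1, encodes a protein that binds Rps19 and is no part of the ribosome, and was taken by its symbol alone. The core genes Rpl38, Rps21, Rps27, Rps28 and Rps29 were not analysed here.

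The ribosome is built from a small subunit, which reads the mRNA, and a large subunit, which joins the amino acids, and each protein is present once per ribosome except those of the stalk. The mRNAs of these proteins belong to the class that begins with a C and a run of pyrimidines, and the growth controller mTORC1 regulates their translation through this start. A growing mouse oocyte makes and stores ribosomes, and the grown oocyte at the germinal vesicle stage, still arrested in meiosis, has largely stopped transcription, so that its RNA is a stored pool.

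All oocytes came from (C57BL x CBA) F1 females and were at the germinal vesicle stage, with 3 samples of 50 oocytes in each group. The in vitro group grew within follicles released by collagenase from ovaries of females 10 to 12 days old, several to a preparation, and kept on membrane inserts in MEM-alpha medium with penicillin, streptomycin, insulin, transferrin, selenium, 5% fetal bovine serum and 0.01 µg/ml follicle stimulating hormone. The in vivo group was freed by needle from ovaries of females 7 to 11 weeks old, into M2 medium with dbcAMP, an agent that holds oocytes in meiotic arrest. Culture, donor age and the medium of collection cannot be told apart in any comparison, and the labels do not state whether the samples of each group were separate cultures or animals, so the p-values below measure the spread between samples only. In such bulk samples fewer cells of a type and less RNA per cell cannot be told apart either.

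The table held a mean of normalised reads per gene and group, and whole reads of the 3 libraries behind a mean could be recovered for 8820 genes, 67 members among them. The recovered libraries held 1260329 to 1868562 reads over these genes. They are called A, B and C within each group, by the size of their scale factor, since nothing ties them to the numbered samples. One library stood apart for the ribosomal protein genes. The normalised reads of the 67 members summed to 11580, 19619 and 11419 in libraries A, B and C of the in vitro group, with a mean of 14206 ± 4689, against 10849, 10291 and 8958 in those of the in vivo group, with a mean of 10033 ± 971 (SD, n = 3 each). Every in vitro sum lay above every in vivo sum, but in vitro library B held 1.71 times the mean of the other in vitro libraries. Without it the ratio of in vitro over in vivo sums was 1.15, against 1.42 with it. In vitro B was the highest of the 6 libraries for 63 of the 67 members, while 31.5% of all recovered genes were highest there.

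**Figure D1:**
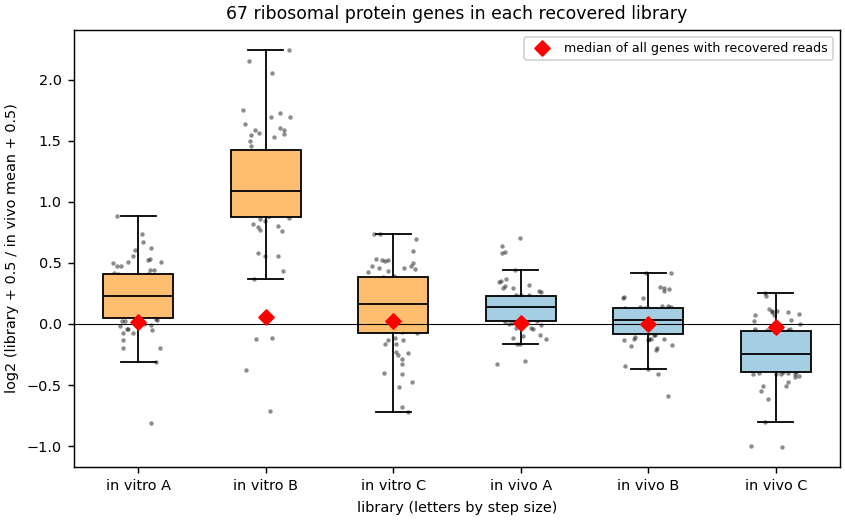
Recovered reads of 67 ribosomal protein genes in each library, as log2 of the library's normalised reads over the in vivo mean, 0.5 added to both. Boxes show the median and quartiles, black points single genes and red diamonds the median of all 8820 recovered genes. In vitro library B has a median of 1.09, and the other libraries lie between -0.24 and 0.23.

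By the deposited means, ribosomal protein mRNAs were mostly more abundant in in vitro oocytes, by a modest amount. The in vitro mean was the higher one for 74 of the 79 members, where 51.1% of all genes had a higher in vitro mean. The median log2 change of in vitro over in vivo was 0.60, a fold of 1.51, beside 0.02 for all genes, and 43 members were at least 1.5-fold higher, as were 16.4% of all genes. The summed means of the members were 23354 normalised reads in vitro and 17057 in vivo, or 0.340% and 0.257% of the table's total. Few of these differences were called for single genes. By the PPEE of the authors' deposited table, taken to be a posterior probability of equal expression and called below 0.05, 3 members were higher, namely Rps2, Rpl4 and Rps19bp1, and 0 were lower. The background was 6.75% of all genes called higher, 8.31% called lower and 15.1% called in either direction, and the called share of the members was smaller than that. Log2 changes here are the deposited ratio with its sign turned, so that a positive one is higher in vitro, and folds are ratios of the deposited means.

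**Figure D2:**
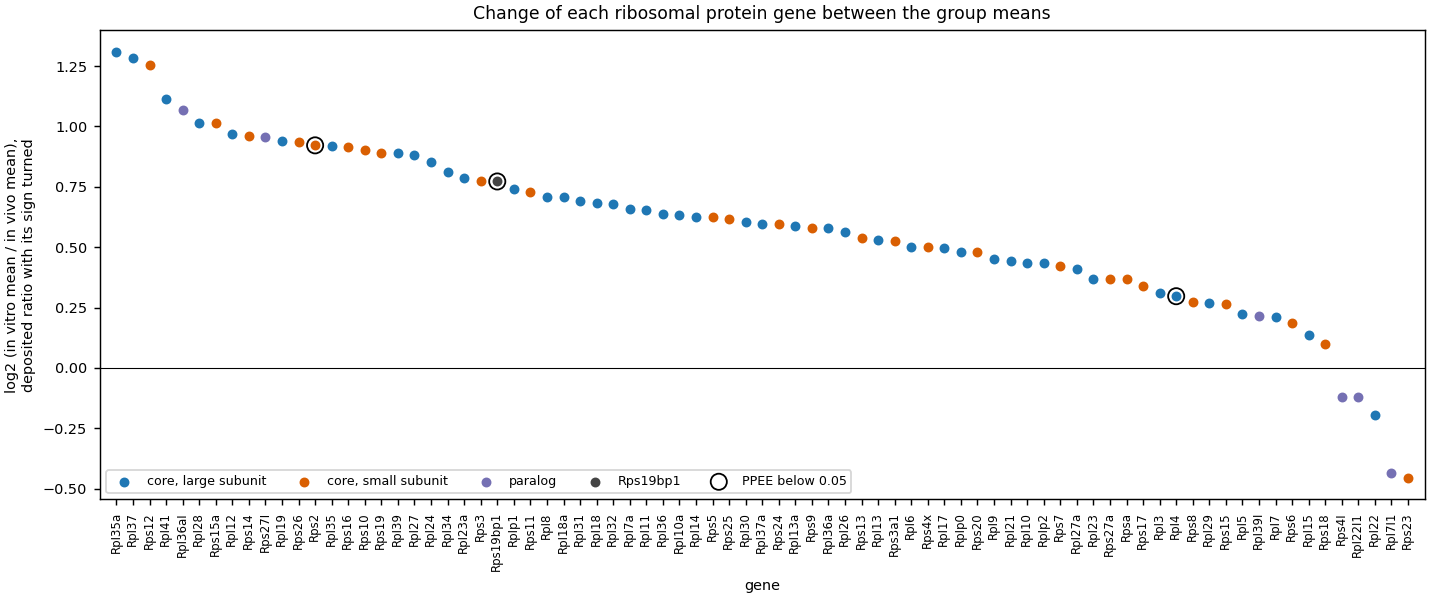
Log2 change of in vitro over in vivo for each of the 79 genes, ordered from the highest to the lowest value, with colours for the subunit or class and a ring around the 3 genes with a PPEE below 0.05. The points run from 1.31 for Rpl35a to -0.46 for Rps23, and 5 lie below 0.

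Tests on the recovered libraries gave a similarly short list. With limma voom fitted over all 8820 recovered genes and p-values adjusted by the Benjamini-Hochberg method, 1 of the 67 members, Rps19bp1, was higher in vitro and 0 were lower, against a background of 5.22% of genes higher and 4.56% lower. At an unadjusted limma p below 0.05 there were 25 members, 24 of them higher in vitro. Of all 8820 recovered genes 2687 passed that limit, 1483 of them higher in vitro. The median fitted log2 change of the members was 0.53. In simulated data the fit called 46% of 2-fold changes, so members without a call are not shown to be unchanged. In 24 members every in vitro library lay above every in vivo library, a pattern shown by 18.9% of all recovered genes, and in 1 member, Rpl7l1, every in vitro library lay below, a pattern shown by 16.0%. The count of calls turned on single libraries. Without in vitro library A, limma voom called 22 members higher and 1, Rpl7l1, lower, where 16.0% of all genes were called higher and 10.7% lower. Without in vitro B the count of called members was 0, the median log2 change 0.24, and 52 members had a fitted change above 0, where 1.07% of all genes were called higher. Leaving out in vitro C, in vivo A, in vivo B or in vivo C also gave 0 called members, with medians between 0.44 and 0.70, where 0.215%, 0.00%, 0.102% and 2.70% of all genes were called higher in that order. With means up to 100 alone, 0 of 25 members were called, where 1.76% of genes were called higher. Rps19bp1, with an in vitro mean of 171, was left out of that fit by the limit. With means up to 200 limma voom still called it (adjusted p = 0.0473).

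The start sequences were searched for the pyrimidine run of this class. RefSeq promoters of build GRCm38.p6 matched 59 of the 79 members by gene identifier. A run of at least 8 letters C or T on the sense strand, from 20 bases before to 40 after any annotated start, was found in 41 of them, or 69.5%, where 24.3% of all matched genes of the table held one. A C at the start itself, followed by 4 letters C or T, was found in 10 members, or 16.9%, against 3.06% of all matched genes, and both patterns can overlap in 1 gene. The letters CCGGAAG or their complement CTTCCGG, a core recognised by Ets factors, were found in the 300 bases of 24 members, or 40.7%, against 20.8%. Of 66 matched genes of the mitochondrial ribosome, 36.4% held the Ets letters, close to the members. The pyrimidine run was in 27.3% of them and the C start in 0%. The median log2 change was 0.76 in the 10 members with the C start and 0.59 in the 49 without, with ranges of 0.10 to 1.31 and -0.46 to 1.28 that overlap over most of their length. The larger sets differed less, at 0.62 in the 41 members with the run and 0.53 in the 18 without, and at 0.64 in the 24 members with the Ets letters and 0.59 in the 35 without. The lines below give 30 bases, from 10 before to 20 after an annotated start, for 4 members with a C start and for 3 members with a lower in vitro mean. They were chosen after their values were seen and do not stand for all members. Among members not shown, Rps18, with a log2 change of 0.10, and Rpl15 held a C start with small increases. Rpl37, with a log2 change of 1.28, and Rps12, Rpl41 and Rpl36al held no C start and were among the largest increases. Rpl35a also had other annotated starts without these letters. Capitals mark the first C and the 4 pyrimidines after it.
Rpl35a, chr16:33056472-33056501, plus strand: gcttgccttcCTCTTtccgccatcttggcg
Rpl28, chr7:4792955-4792984, plus strand: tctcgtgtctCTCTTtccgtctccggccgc
Rps10, chr17:27635225-27635254, minus strand: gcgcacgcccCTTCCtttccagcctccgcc
Rps6, chr4:86857348-86857377, minus strand: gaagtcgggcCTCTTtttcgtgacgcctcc
Rps23, chr13:90923112-90923141, plus strand: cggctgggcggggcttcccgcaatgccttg
Rpl22, chr4:152325716-152325745, plus strand: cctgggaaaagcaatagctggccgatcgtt
Rpl7l1, chr17:46782637-46782666, minus strand: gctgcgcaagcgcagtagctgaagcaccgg
The last 3 hold no capitals, since their annotated starts do not begin with the searched letters, which says nothing about how these mRNAs are translated. Rps23 did hold the run of at least 8 pyrimidines in the wider stretch searched. So did Rpl22l1, which also had a lower in vitro mean, while Rpl22 and Rpl7l1 did not.

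Among the 45 core genes of the large subunit, 44 had the higher in vitro mean and the median log2 change was 0.63, with 1 called higher by PPEE and 0 lower. Rpl4, whose protein lines the exit tunnel for the new peptide, was that gene. Its mean in the authors' deposited table was 2546 normalised reads in vitro and 2072 in vivo, a fold of 1.23, and its PPEE there was 9.6e-09. Rpl4 was thus called on one of the smaller changes of the subunit, while the largest was not called. Rpl35a, a gene mutated in some patients with Diamond-Blackfan anaemia, had 15.6, 38.4 and 9.93 normalised reads in vitro, in the order A, B and C kept below, and 13.7, 5.31 and 5.65 in vivo. In vitro B was far above the rest and the groups overlapped. Its deposited means of 21.3 and 8.24 differed 2.59-fold, the authors' deposited table gave a PPEE of 0.482, and limma voom gave a log2 change of 1.22 (SE 0.61, adjusted p = 0.191).

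In vitro B was also the highest library for other large differences in this subunit where reads were recovered, but the groups did not always overlap. Rpl41 encodes an exceptionally short peptide. It had 58.8, 181 and 42.2 normalised reads in vitro and 40.4, 53.1 and 36.1 in vivo, so that in vitro B again exceeded all others and in vitro C lay within the in vivo range. Rpl28 had 60.7, 142 and 63.3 normalised reads in vitro against 50.1, 47.8 and 32.8 in vivo. Here the groups did not overlap, and limma voom gave a log2 change of 0.90 (SE 0.36, adjusted p = 0.113). Rpl37, a zinc-binding protein of the large subunit, had deposited means of 36.3 in vitro and 14.5 in vivo, with no whole reads recovered. Rpl19 was chosen after its values were seen, since it was the member nearest to the threshold, and limma-trend in place of voom called it and Rps19bp1 higher, where 6.56% of all genes were. It had 346, 753 and 362 normalised reads in vitro against 271, 245 and 245 in vivo, and limma voom gave a log2 change of 0.84 (SE 0.26, adjusted p = 0.0586). The in vivo libraries were tight and the in vitro ones all lay above them.

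Rpl5, which binds the 5S RNA and takes part in holding Mdm2 away from p53, was among the most abundant members and differed little. Its deposited means were 3579 in vitro and 3063 in vivo, a fold of 1.17, and the authors' deposited table gave a PPEE of 0.923. Rpl9, at the other end of the scale, had 18.4, 20.7 and 9.93 normalised reads in vitro and 13.7, 15.9 and 5.65 in vivo, and the groups overlapped. Rpl22 was the only core gene of the large subunit with a lower in vitro mean. It had 136, 144 and 128 normalised reads in vitro and 139, 143 and 185 in vivo, overlapping groups that differed mainly in in vivo library C (limma voom log2 change -0.17, SE 0.20, adjusted p = 0.598).

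Among the 27 core genes of the small subunit, 26 had the higher in vitro mean, with a median log2 change of 0.58, 1 called higher by PPEE and 0 lower. Rps2, which sits where mRNA enters the ribosome, was that gene, with deposited means of 1229 in vitro and 649 in vivo, a fold of 1.89, and the authors' deposited table gave a PPEE of 0.00565. Its in vitro mean lay above the range solved for reads, so no limma value was had. Its in vivo mean had a single whole solution of 787, 390 and 854 reads, a wide spread, in a range of means where values off the steps were often solved too. Rps12 had the largest difference of the subunit, 2.44-fold higher in vitro by the means, and rested on 1 library. It had 15.6, 74.6 and 22.3 normalised reads in vitro against 12.1, 15.9 and 18.1 in vivo, and in vitro A lay within the in vivo range (limma voom log2 change 0.97, SE 0.56, adjusted p = 0.261). Rps15a had the lowest level per length of all members, with means of 50.7 in vitro and 24.8 in vivo over a deposited length of 5158 bases, the longest among the members.

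Rps23, which lies at the decoding centre, had the lowest change of all members. It had 66.2, 63.2 and 49.6 normalised reads in vitro and 106, 64.7 and 75.7 in vivo. The in vitro A library exceeded in vivo B, so the groups overlapped, and limma voom gave a log2 change of -0.43 (SE 0.27, adjusted p = 0.295). Rps23 was also one of the few members for which in vitro B was not the highest library. Rps18 differed little by its means of 41.9 in vitro and 39.1 in vivo. It had 22.1, 72.6 and 31.0 normalised reads in vitro against 59.0, 39.0 and 19.2 in vivo, a spread within each group far above the difference between them. Rpsa, also known as a laminin receptor, had 265, 293 and 212 normalised reads in vitro against 200, 204 and 193 in vivo. Every in vitro library of Rpsa lay above the in vivo ones by a small margin (limma voom log2 change 0.36, SE 0.18, adjusted p = 0.191).

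**Figure D3:**
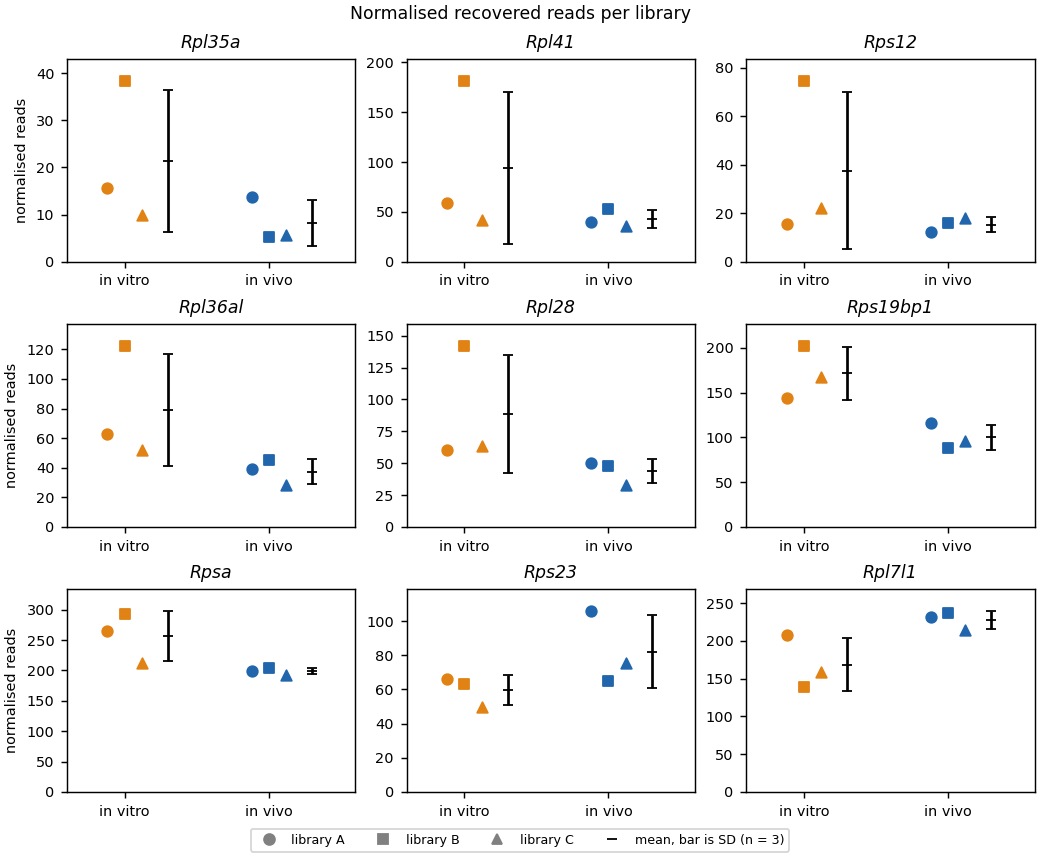
Normalised recovered reads of 9 genes in each library, in vitro to the left and in vivo to the right, with the mean and SD of 3 libraries beside the points. In vitro B (squares) is highest in 7 of the panels, while Rps23 and Rpl7l1 are lower in vitro by their means.

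The stalk of the large subunit, which recruits elongation factors, is formed by the products of Rplp0, Rplp1 and Rplp2. All of these 3 genes had higher in vitro means and 0 were called by PPEE. The deposited means were 1438 in vitro and 1031 in vivo for Rplp0 and 34.4 in vitro and 25.3 in vivo for Rplp2, both without recovered reads. Rplp1 had 44.1, 134 and 50.9 normalised reads in vitro and 51.7, 41.6 and 42.9 in vivo, so that only in vitro B lay clear of the in vivo libraries.

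The 6 paralogs had no common direction, with 3 higher and 3 lower in vitro means and a median log2 change of 0.05. Rpl36al is nearly the same as Rpl36a in protein. Rpl36al had 62.5, 122 and 52.1 normalised reads in vitro against 38.8, 45.2 and 28.2 in vivo, groups that did not overlap (limma voom log2 change 0.98, SE 0.35, adjusted p = 0.0855). Its partner Rpl36a had 18.4, 44.6 and 12.4 in vitro against 25.1, 12.4 and 12.4 in vivo, with overlapping groups. Rps27l, a p53 target, had deposited means of 77.4 in vitro and 39.6 in vivo, and no partner value is given. Rpl39l, which in mouse testis serves a ribosome of male germ cells, had means of 50.3 in vitro and 43.2 in vivo. Its partner Rpl39 had 19.5 in vitro and 10.2 in vivo, and over the deposited lengths the paralog was at 62.5 normalised reads per kilobase in vitro and 53.7 in vivo, against 49.4 in vitro and 26.0 in vivo for Rpl39.

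Rps4l stood far below its partner. Its means were 101 in vitro and 110 in vivo, while Rps4x, on the X chromosome, had 736, 1156 and 808 normalised reads in vitro against 686, 634 and 587 in vivo, without overlap (limma voom log2 change 0.47, SE 0.17, adjusted p = 0.0929). Rpl22l1, whose mRNA the Rpl22 protein is known to hold down in mice, was scarce, with means of 8.004 in vitro and 8.75 in vivo. Rpl7l1 is related to yeast Rlp7, a factor that helps assemble the large subunit. It had 208, 139 and 159 normalised reads in vitro against 231, 237 and 215 in vivo, so that every in vitro library lay below every in vivo one (limma voom log2 change -0.45, SE 0.19, adjusted p = 0.141). Its partner Rpl7 had means of 412 in vitro and 356 in vivo. Reads from near-identical copies, including the many processed pseudogenes of ribosomal protein genes, could be split or lost in the authors' counting, and use of strand is not given in the sources used here, so the levels of such pairs are uncertain.

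Rps19bp1 was called by both the PPEE and limma voom, and the other members called by PPEE, Rps2 and Rpl4, had no limma value. It had 144, 202 and 167 normalised reads in vitro against 116, 88.6 and 96.0 in vivo, a mean of 171 ± 29.1 against 100 ± 14.0 (SD, n = 3 each). All in vitro libraries lay above all in vivo ones, and in vitro B was again the highest. The limma voom log2 change was 0.76 (SE 0.22, adjusted p = 0.0457), and the authors' deposited table gave a PPEE of 0.000586. The change ranged from 0.63 to 0.89 when each library was left out, and the call held only without in vitro A. Centred on other genes of its length class, the log2 change of its means was 0.43, against 0.77 uncentred.

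Gene length moved with the result. Among the 629 other genes under 1000 bases, the median log2 change was 0.38 and 511 had the higher in vitro mean, or 81.2%. Among the 60 members under 1000 bases the median was 0.63 and 57 had the higher in vitro mean. The excess of in vitro B was shared too. Against the in vivo mean, the other short genes had median log2 values of 0.12, 0.78 and 0.09 in vitro and 0.15, 0.02 and -0.20 in vivo, and the short members had 0.25, 1.17 and 0.16 in vitro and 0.16, 0.03 and -0.28 in vivo. Within each length class from 300 to below 2500 bases the members had the higher median. For lengths from 500 to below 700 bases it was 0.73 for 21 members and 0.42 for 171 other genes, and for those from 1500 to below 2500 bases 0.30 for 6 members and 0.02 for 2741 other genes. With each member set against the median of the other genes in its length class, the median log2 change was 0.25, and 65 of the 79 members lay above 0. On that scale the libraries stood at 0.12, 0.34 and 0.06 in vitro and 0.00, 0.03 and -0.03 in vivo. Across the 67 recovered members, length and the log2 ratio of in vitro B over the mean of in vitro A and C had a Spearman correlation of -0.69, a description over genes that share the same libraries. The part of transcript length in the result was not tested beyond these values.

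**Figure D4:**
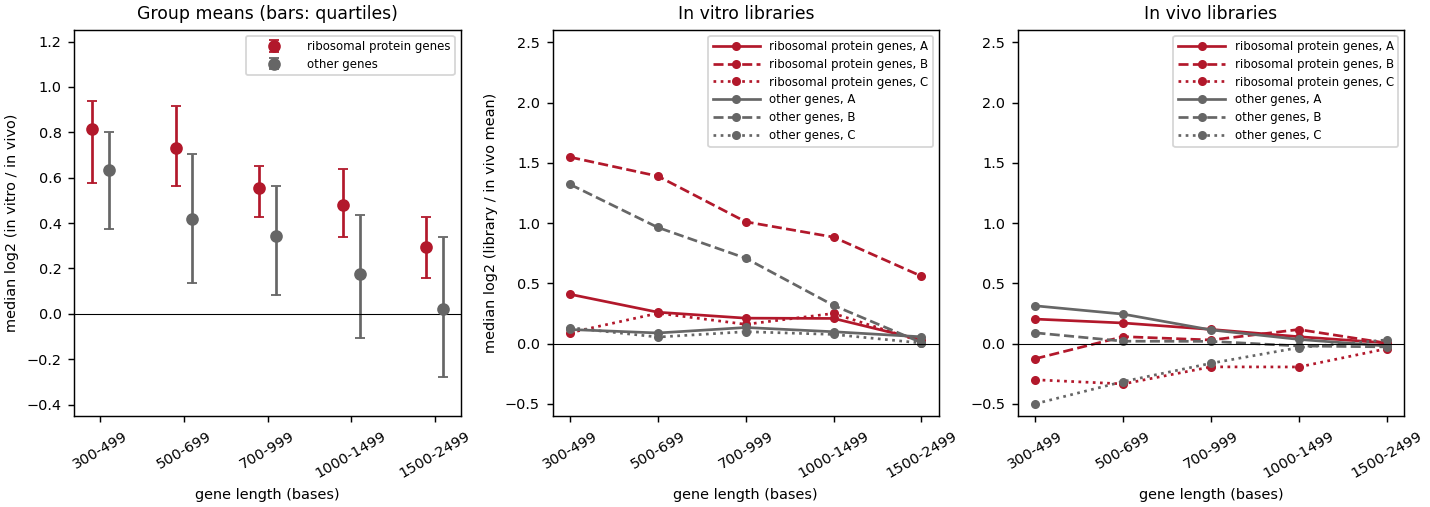
Median log2 change by gene length for ribosomal protein genes (red) and all other genes (grey), from the group means with quartiles as bars (left) and for each recovered library against the in vivo mean (middle and right). Over these classes below 2500 bases both sets fall with length in the left panel, where members lie above other genes, and in vitro B (dashed, middle panel) is highest for short genes, at 1.55 in members and 1.32 in other genes from 300 to below 500 bases.

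Although the core proteins, those of the stalk apart, are needed in equal numbers, the counted levels of their mRNAs per length spread widely. Reads split among or lost to near-identical copies could bear on these levels too, which was not tested. Per kilobase of the deposited gene length, the 72 core genes ran from 9.84 to 1791 normalised reads in vitro, with a median of 182, and from 4.82 to 1504 in vivo, with a median of 121. The lowest value in both groups was that of Rps15a, whose deposited length of 5158 bases was the longest among the members. The SD of the log2 levels per kilobase was 1.56 in vitro and 1.65 in vivo. Without length scaling it was 1.79 in vitro and 1.90 in vivo. The order was nearly the same in both groups, with a Spearman correlation of 0.977 between the levels per kilobase. By the average of both groups, the highest members per kilobase were Rpl4 with 1791 in vitro and 1457 in vivo, Rpl5 with 1758 in vitro and 1504 in vivo, and Rps2 with 1223 in vitro and 646 in vivo, although in vivo Rplp0 at 758 and Rps4x at 718 stood above Rps2. The lowest by that average were Rps15a, Rpl22l1 and Rpl9. Rpl22l1 had 16.8 normalised reads per kilobase in vitro and 18.3 in vivo, and Rpl9 had 22.2 in vitro and 16.0 in vivo. In vivo alone, Rpl35a at 15.7 was below Rpl9, and Rpl37 at 16.8 was below Rpl22l1.

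**Figure D5:**
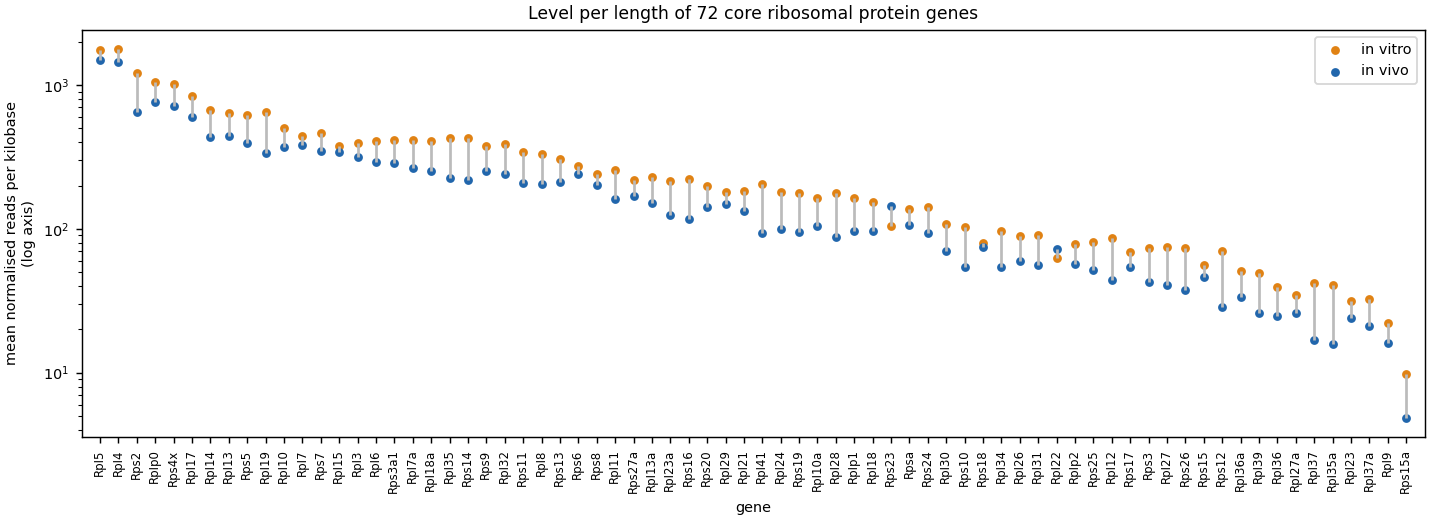
Mean normalised reads per kilobase of deposited gene length for the 72 core genes, on a log axis, in vitro in orange and in vivo in blue, ordered by the average of both. The levels run from 1791 to 9.84 in vitro, and the in vitro point is above the in vivo point in 70 genes.

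Genes with related roles were read beside the members. For this and the lists below, the background was 6.75% of all genes called higher by PPEE and 8.31% called lower. No list was tested against these shares. The 74 genes of the mitochondrial ribosome, which is built from separate proteins, had a median log2 change of 0.37 with 64 higher in vitro means, and the authors' deposited table called 7 higher and 0 lower. Mrpl3 was 2.78-fold, Mrpl19 1.95-fold, Mrps15 1.74-fold and Mrps35 1.69-fold higher. Their libraries had median log2 values of 0.16, 0.78 and 0.14 in vitro and 0.05, 0.02 and -0.15 in vivo. Of 24 translation factors and other genes of the same start class, 3 were called higher, Npm1 at 1.51-fold, Gltscr2 at 1.51-fold and Eif3h at 1.49-fold, and 2 were called lower, Cct4 and Eef2. Their median log2 change was 0.21.

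The machinery that makes ribosomes was mixed. Of 51 assembly genes the authors' deposited table called 6 higher and 4 lower, with a median log2 change of 0.07. Eif6, which keeps the subunits apart until they are ready, was 1.39-fold higher, and Dkc1, the enzyme that modifies uridines in ribosomal RNA, was 1.56-fold higher. Nmd3, the export adaptor of the large subunit, was 1.38-fold higher. Gnl3l, a nucleolar GTPase, was lower, with means of 6.11 in vitro and 39.6 in vivo, and so was Rrp12, with 222 in vitro and 513 in vivo, and Utp15, with 334 in vitro and 546 in vivo. Acin1, a splicing factor, was also among the 6.

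Of 24 genes of growth control, 2 were called higher and 5 lower in the authors' deposited table, with a median log2 change of -0.13. RNA polymerase I, which makes ribosomal RNA, had lower levels of its subunit genes Polr1a, with means of 350 in vitro and 733 in vivo, and Polr1b, with 78.3 in vitro and 187 in vivo, and of its initiation factor Rrn3, with 891 in vitro and 1613 in vivo. Ubtf and Taf1d, which also serve its initiation, were not called, with means of 221 in vitro and 244 in vivo for Ubtf and 74.9 in vitro and 75.5 in vivo for Taf1d. The mTORC1 inhibitors Tsc1 and Tsc2 were lower as well. Rheb, the activator of mTORC1, was 1.49-fold higher, and Akt1s1, an inhibitor within the complex, was 4.69-fold higher. Of 10 genes listed for storing or silencing ribosomes, 1 (Iqcb1) was called higher and 2 (Eef2 and Nlrp5) lower. The place of Iqcb1 in that list was not checked, so its call is not read as one of ribosome storage. Of 12 genes of ribosome quality control and the p53 loop, 2 (Pelo and Zfp598) were called higher and 2 (Mdm4 and Ltn1) lower.

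Markers of other cells were measured in the same libraries. Of 13 measured oocyte markers, Gdf9, Zp2 and Zp3 were among the abundant ones in both groups, and the list's means summed to 126296 normalised reads in vitro and 178233 in vivo, with Bmp15, Kit and Nlrp5 called lower in vitro. Of 19 granulosa markers 10 were measured. Only 5 of these 10 had the higher in vitro mean, and the median log2 change of the 10 was 0.24. Inhba, Inha and Fshr were called higher. The 10 summed to 452, 568 and 462 normalised reads in vitro and 326, 331 and 321 in vivo. In vitro B was thus also the highest library of this sum. Of 9 theca or stroma markers 0 were measured, and of 14 blood, immune or endothelial markers 4 were, with Pecam1 and Tek called lower. The part of granulosa RNA in the ribosomal protein result was not tested.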

How the data were processed

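RNA of 3 in vitro and 3 in vivo samples was made into cDNA with a low-input SMARTer kit from 10 ng of total RNA, per the labels' protocols, and BWA and build mm9 are named in the submitters' processing notes. The deposited signal is the authors' mean of normalised reads per gene and group, with scale factors not given in the sources used here. The authors also deposited a log2 ratio, in vivo to in vitro, which could be recomputed after adding 0.599 to each mean, with a largest deviation of 8.35e-09. The deposited PPEE is a fraction between 0 and 1 and no p-value, and its meaning was taken from the usual use of the term. Reads in no gene, and the depth of each whole library, are not known.

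Each deposited mean adds up whole reads of 3 libraries, multiplied by a step that belongs to the library. The steps were found from low means, with size factors of 1.09, 0.965 and 0.806 in vitro and 1.24, 1.13 and 0.885 in vivo, and means up to 1000 were solved for whole reads. This limit was set after seeing the data, in place of 200. A single solution was found for 94.3% of these means in vitro and 93.1% in vivo. Values shifted off the steps gave a single solution in 0.0156% of cases in vitro and 0.123% in vivo below means of 200, and in 18.2% and 36.5% between 200 and 1000, so the reads of members above 200 are less certain. Members without reads in both groups, and so without a fit, were Rpl5, Rplp0, Rps2 and Rpl4, with a mean above 1000 in at least 1 group, and Rpl31, Rpl26, Rps15a, Rps26, Rplp2, Rpl37, Rpl22l1 and Rpl34. Of these, Rps2, Rpl31, Rps15a and Rps26 were solved in vivo alone. The recovery and the fit were tested on simulated data. Reads were fitted with limma 3.58.1 (voom, 2-sided, Benjamini-Hochberg over all 8820 genes, adjusted p below 0.05) in R 4.3.3, with library sizes proportional to these size factors and no filter on low values. Reads carry no molecular identifiers. Promoter sequences were from RefSeq, build GRCm38.p6.

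The members and lists were chosen with earlier results of these data known. Genes named were those called by PPEE or limma, the 6 largest increases, the 6 lowest changes, the 3 highest and 3 lowest levels per length, the stalk genes, Rpsa, the paralogs with their partners, and called genes of the lists, at most 4 a list. Genes beyond this rule are Rpl19, the example starts of Rps10 and Rps6, further called genes of the lists, and the uncalled genes named beside their lists. Alternatives covered the threshold, pseudocount, scaling, low values, the members counted, the model and each library. The result of 1 list of genes is not reported here.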

Additional observations from a re-analysis of the deposited data

How the results depend on the processing

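The counts of members called by PPEE and the median change of the members stayed within 1.5 times of their values, or within the spread between libraries, under each alternative of threshold, size, pseudocount, scaling and members counted. Centring on length classes, added after seeing the data, gave a median of 0.25 against 0.60. The median fitted by limma over the 67 members with recovered reads was 0.53, and 0.24 without in vitro library B. The calls of limma on recovered reads did not. The main count of 1 higher member became 2 (Rpl19 and Rps19bp1) with limma-trend, and ran between 0 and 22 when each library was left out. It was 0 with means up to 100, a limit that left out Rps19bp1 itself, and 1 with means up to 200. The count of lower members, 0, ran between 0 and 1. With 1 library left out, 0 members were called in 5 of 6 fits, and without in vivo library A 0 of all 8820 genes were called. Of the 67 members, 62 had a fitted change above 0 with all libraries and 52 without in vitro B. Among the genes named by rule, 5 changed sign in some fit. With each library left out, log2 changes ran from -0.0535 to 0.814 for Rpl36a, from -0.214 to 0.390 for Rpl39l and from -0.0205 to 0.380 for Rpl7, each lowest without in vitro B. They ran from -0.244 to 0.00964 for Rps4l, highest without in vitro C, and from -0.526 to 0.394 for Rps18, lowest without in vitro B and highest without in vitro A. With all libraries Rps18 was at -0.02, and at 0.0565 with limma-trend. With the group means centred on length classes, Rpl36a, Rpl39l, Rpl7, Rplp2 and Rps18 went from above to below 0. Rpl28 fell from 1.01 to 0.38 and Rps4x from 0.50 to 0.16, while Rps15a and Rpl7l1 rose. The cause was not tested. No paired analysis was possible because the group means carry no replicate numbers and the recovered libraries cannot be tied to the numbered samples.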
